A study of Mus musculus with 18 samples.

Results

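The expression of 9 complement genes was examined in mouse colon, out of 47729 genes in a table of RNA-Seq counts. The genes were taken by their symbols and encode the subunits of complement C1q (*C1qa*, *C1qb* and *C1qc*), the classical-pathway components *C4b* and *C2*, the central component *C3*, the alternative-pathway protease *Cfb*, the inhibitor *Cfi* and the receptor *C3ar1*. Each symbol had 1 row in the table. Colon RNA came from 9 mice, 3 in each group. Control WT mice were wild-type mice labelled as untreated controls. AOM-DSS WT mice were wild-type mice given azoxymethane (AOM), a colon carcinogen, in a single dose of 10 mg/kg body weight, followed by 2.5% dextran sulfate sodium (DSS), a polymer that injures the colon lining, in 3 cycles, and their source is labelled as colitis-associated colon cancer. AOM-DSS Claudin-2TG mice had the same treatment and carried a transgene that expresses claudin-2, a tight junction protein, from the Villin promoter, which is active in the intestinal epithelium. All lines were on a C57BL/6 background, and littermates served as controls. The age of the sequenced mice is not given in the sources used here. The treatment text is attached to the control samples too, so the untreated group was taken from the treatment label. There were no untreated Claudin-2TG mice, so the action of the transgene under AOM-DSS cannot be told apart from any it has without treatment.

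Complement is a cascade of plasma and tissue proteins that marks microbes, immune complexes and dying cells. C1q binds its target and activates the proteases C1r and C1s, which cleave C4 and C2 to build the classical C3 convertase, while factor B builds the alternative one. Both cleave C3, whose fragments coat the target or signal to myeloid cells, and factor I and several membrane proteins hold the cascade in check. Most plasma complement is made by the liver, but tissue macrophages make C1q, and epithelial and stromal cells can make C3 and factor B.

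Each library was read in 2 lanes, which were added up, and 14142711 to 22262546 reads per mouse were counted on genes. Levels are given as CPM, read counts scaled to a common library size, with TMM normalization in edgeR (a trimmed mean of log ratios) over the 9 mice. A count of 0 allows up to 3 reads, or 0.130 to 0.222 CPM, which covers counting error only. The transgene's gene, *Cldn2*, was at 119 to 137 CPM in AOM-DSS WT, 208 to 251 CPM in AOM-DSS Claudin-2TG and 191 to 259 CPM in Control WT mice. The female-specific RNA *Xist* was at 214 CPM in Control WT mouse 1 and the Y chromosome gene *Ddx3y* at 0.149 CPM, with at most 0.203 CPM of the former and at least 34.1 CPM of the latter in the other mice. That mouse therefore differed in sex from the rest, and the calls that use it are given with and without it below. The epithelial markers that define the tissue were all detected, and their summed level was 13129 to 17711 CPM over all mice. The labels do not say how the mice of a group were housed or processed, and p-values measure only the spread between these samples. In bulk colon, fewer cells of a type and less RNA per cell cannot be told apart.

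The first question was how complement expression differed between AOM-DSS WT and Control WT colon. All 3 C1q subunit genes, *C4b* and *C2* rose 3.24- to 4.36-fold, and *C3*, *Cfb* and *C3ar1* did not pass the test. Of the 8 members with enough counts to be tested, 5 were called higher and 0 lower, where a call is an adjusted p-value under 0.05 from edgeR's two-sided quasi-likelihood test with Benjamini-Hochberg adjustment over all 15437 genes tested. Of all those genes, 8.04% were called higher. The median log2 fold change was 1.80 over the 8 members and 0.02 over all genes tested. In 7 of the 9 members every AOM-DSS WT mouse was above every Control WT mouse, as was so for 17.7% of the genes tested. For those 7, a two-sided exact permutation test gave p = 0.1, the smallest that 3 mice against 3 allow.

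**Figure D1:**
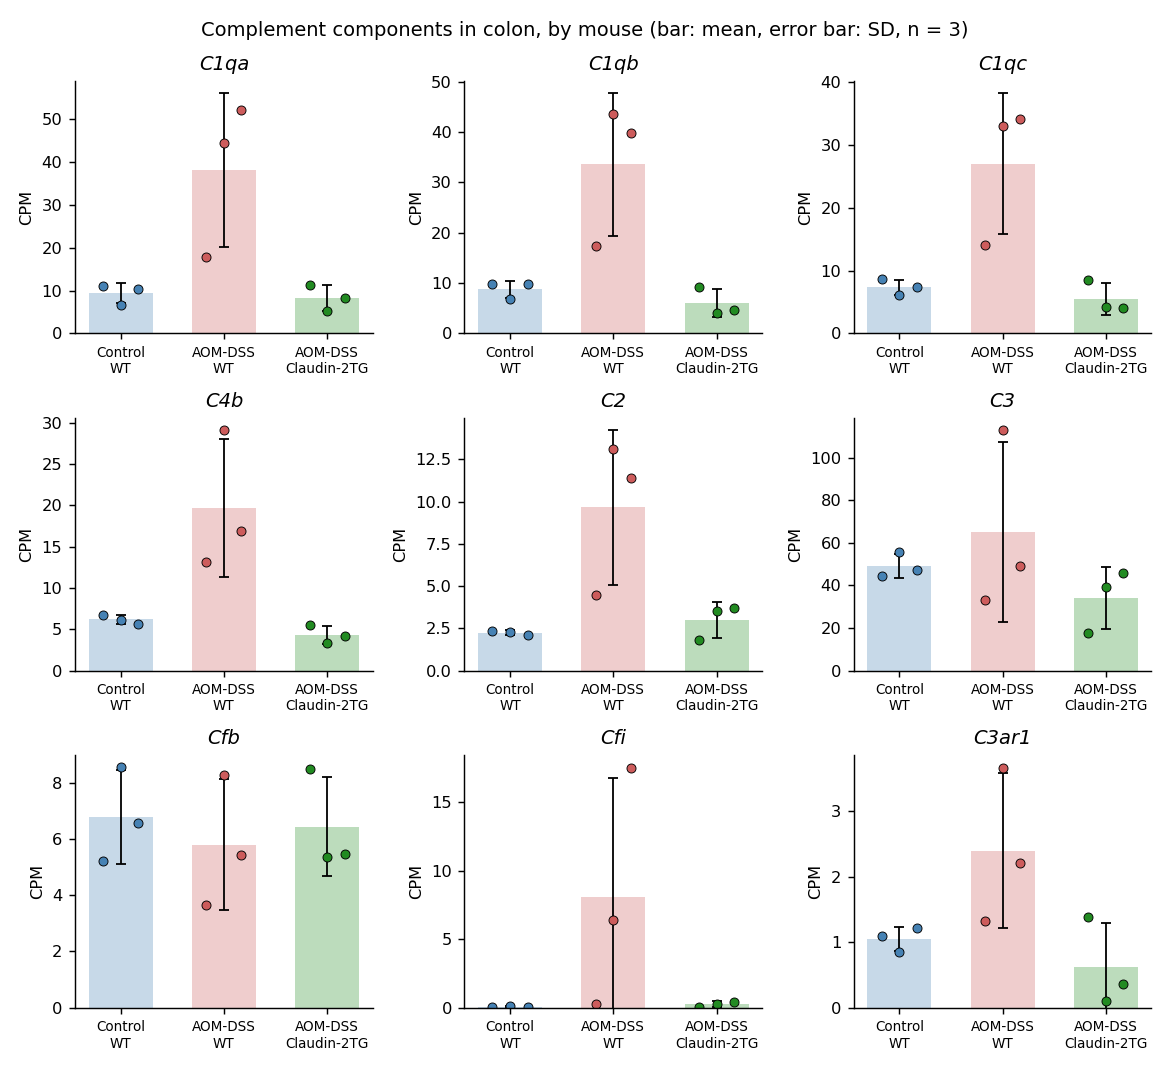
CPM of each complement gene in the colon of each mouse, with a linear axis from 0 for each gene. Points are mice in the order of their numbers, bars are group means and error bars are SD (n = 3 mice). The C1q genes, *C4b* and *C2* are highest in all 3 AOM-DSS WT mice, with mouse 4 the lowest of them, *Cfi* is high in AOM-DSS WT mice 5 and 6 alone, and the groups overlap for *C3* and *Cfb*.

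The 3 C1q genes lie side by side on the minus strand of chromosome 4 (GRCm38), with *C1qb* from 136880129 to 136886187, *C1qc* from 136889804 to 136893065 and *C1qa* from 136895917 to 136898803. None shares exonic bases with another gene model, and no 50-base stretch of their transcripts occurs in transcripts of another gene. *C1qa* encodes the A chain of C1q. Its levels were 11.1, 6.73 and 10.4 CPM in Control WT mice 1 to 3, 17.9, 44.3 and 52.1 CPM in AOM-DSS WT mice 4 to 6, and 11.4, 5.22 and 8.27 CPM in AOM-DSS Claudin-2TG mice 7 to 9. AOM-DSS WT mice 5 and 6 were high, mouse 4 lay between them and the rest, and the AOM-DSS WT group overlapped neither of the others. From Control WT to AOM-DSS WT, *C1qa* rose by 2.04 in log2 units (standard error 0.40, adjusted p = 0.0229 from edgeR).

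*C1qb* encodes the B chain. It was measured at 9.75, 6.88 and 9.86 CPM in Control WT, 17.4, 43.6 and 39.8 CPM in AOM-DSS WT and 9.30, 4.16 and 4.65 CPM in AOM-DSS Claudin-2TG mice. The order of the mice was nearly that of *C1qa*, with AOM-DSS WT mouse 4 again the lowest of its group and still above every mouse of the other groups. AOM-DSS WT exceeded Control WT by a log2 fold change of 1.95 (adjusted p = 0.0168, standard error 0.34). For *C1qc*, the C chain, Control WT mice had 8.61, 6.18 and 7.34 CPM, AOM-DSS WT mice 14.1, 33.0 and 34.1 CPM and AOM-DSS Claudin-2TG mice 8.47, 4.16 and 3.99 CPM. Again only mice 5 and 6 were far above the rest, and AOM-DSS Claudin-2TG mouse 7 was the highest of its group for all 3 chains. *C1qc* rose by 1.90 on the log2 scale in AOM-DSS WT mice (standard error 0.33, adjusted p = 0.0160).

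Complement C1q contains its 3 chains in equal number. Per exonic length, *C1qb* RNA was 0.538 to 0.977 times that of *C1qa* and *C1qc* RNA 0.260 to 0.494 times that of *C1qa* over the 9 mice. The lowest value of both ratios came from AOM-DSS Claudin-2TG mouse 9. The range in AOM-DSS WT mice was 0.731 to 0.943 for *C1qb* and 0.352 to 0.424 for *C1qc*, overlapping that of Control WT mice at 0.836 to 0.977 and 0.379 to 0.494. In AOM-DSS Claudin-2TG mice the *C1qb* ratio was 0.538 to 0.782, below every Control WT mouse, and the *C1qc* ratio 0.260 to 0.429, overlapping both groups, and neither was tested. In every mouse *C1qa* was the highest of the 3 per length and *C1qc* the lowest.

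The start windows of *C1qb* and *C1qc* are shown because these neighbouring genes moved together, and that of *C3* because it did not pass the test in any of the 3 comparisons. Of the 9 members, these 3 and *C3ar1* matched an entry of the RefSeq promoter table (GRCm38.p6), and the others, *C1qa*, *C2*, *C4b*, *Cfb* and *Cfi*, are named only. Each window holds 250 bases before the start that RefSeq gives the gene and 50 bases from it, read 5′ to 3′ on the gene's own minus strand. *C1qb* is at chr4:136886151-136886450, *C1qc* at chr4:136892865-136893164 and *C3* at chr17:57228087-57228386. RefSeq's start is the GENCODE start for *C3*, lies 13 bases before it for *C1qb* and lies 151 bases inside the GENCODE gene for *C1qc*, so part of the *C1qc* sequence before the RefSeq start is within the gene by GENCODE. Capitals mark matches, on either strand, to the motifs searched.
C1qb: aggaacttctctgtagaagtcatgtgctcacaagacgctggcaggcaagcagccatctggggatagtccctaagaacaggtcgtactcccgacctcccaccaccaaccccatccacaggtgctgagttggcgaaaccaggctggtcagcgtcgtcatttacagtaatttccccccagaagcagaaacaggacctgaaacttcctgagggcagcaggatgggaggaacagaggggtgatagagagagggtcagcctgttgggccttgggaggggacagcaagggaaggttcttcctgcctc
C1qc: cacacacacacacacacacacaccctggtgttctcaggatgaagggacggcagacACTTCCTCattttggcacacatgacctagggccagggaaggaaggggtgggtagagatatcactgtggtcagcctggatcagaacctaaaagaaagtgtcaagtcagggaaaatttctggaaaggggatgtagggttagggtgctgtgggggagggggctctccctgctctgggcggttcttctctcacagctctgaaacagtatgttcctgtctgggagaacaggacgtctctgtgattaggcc
C3: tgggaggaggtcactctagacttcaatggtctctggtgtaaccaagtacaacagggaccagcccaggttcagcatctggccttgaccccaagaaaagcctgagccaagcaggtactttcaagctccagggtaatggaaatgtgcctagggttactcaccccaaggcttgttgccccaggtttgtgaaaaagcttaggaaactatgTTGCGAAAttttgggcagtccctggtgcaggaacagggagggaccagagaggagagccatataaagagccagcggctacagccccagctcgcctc

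The motifs searched were GGNNTTTCC for NF-kB, GAAANNGAA for the interferon response, TTCNNNGAA for STAT proteins, TTGCNNAA for C/EBP and GAGGAAGT for PU.1, where N is any base. Among 32851 windows of the same length in the table, the share that holds the motif was 5.82% for NF-kB, 8.56% for the interferon response, 8.30% for STAT, 10.8% for C/EBP and 3.20% for PU.1. The *C1qc* window held the PU.1 letters on the opposite strand, first base at -195 counted from the RefSeq start, and the *C1qb* window held none of the 5 motifs. C/EBP letters stood at -45 in the *C3* window, on the gene's strand, 1 match in all. In *C3ar1* (chr6:122856108-122856407) the NF-kB letters stood at -14 on the opposite strand. No 2 matches overlapped. A match describes letters in these windows and not a bound site.

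*C4b* and *C2* encode the proteins that together form the classical C3 convertase. *C4b* lies on chromosome 17 from 34728380 to 34743882 and *C2* from 34862604 to 34898265, both on the minus strand, in the stretch that also holds *Cfb* from 34856374 to 34862518. *C4b* was at 6.77, 6.13 and 5.69 CPM in Control WT, 13.1, 29.1 and 16.9 CPM in AOM-DSS WT and 5.51, 3.34 and 4.21 CPM in AOM-DSS Claudin-2TG mice. Mouse 5 was the highest, all AOM-DSS WT mice stood above all others, and all AOM-DSS Claudin-2TG mice lay below all Control WT mice. *C4b* rose by 1.70 on the log2 scale from Control WT to AOM-DSS WT (standard error 0.29, adjusted p = 0.0144). Of the 5737 stretches of 50 bases in *C4b* transcripts, 34.6% also occur in its near copy *C4a*, so reads of these stretches may not have been assigned to either gene. *C4a* itself was at 0.151 to 1.07 CPM and had too few counts to be tested.

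*C2* was at 2.34, 2.31 and 2.08 CPM in Control WT, 4.47, 13.1 and 11.4 CPM in AOM-DSS WT and 1.79, 3.50 and 3.69 CPM in AOM-DSS Claudin-2TG mice. All AOM-DSS WT mice were above all others, and here AOM-DSS Claudin-2TG mouse 7, the highest of its group for C1q, was the lowest. The log2 fold change of AOM-DSS WT against Control WT was 2.12 (adjusted p = 0.0171, standard error 0.39). A readthrough gene model on the same strand, *Gm20547*, covers 42.8% of the exonic bases of *C2* and 79.5% of those of *Cfb* and was listed at 0 reads in every mouse. *Zbtb12* on the opposite strand covers another 4.16% of *C2*. The levels of *C2* and *Cfb* may therefore miss the reads of the shared bases.

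*C3* encodes the component on which the pathways converge and lies on chromosome 17 from 57203970 to 57228136. Its levels were 44.5, 55.7 and 47.4 CPM in Control WT, 33.1, 113 and 49.1 CPM in AOM-DSS WT and 17.8, 39.2 and 45.7 CPM in AOM-DSS Claudin-2TG mice. AOM-DSS WT mouse 5 was far above and AOM-DSS Claudin-2TG mouse 7 far below the other mice, and the 3 groups overlapped. The log2 fold change of AOM-DSS WT against Control WT was 0.43 (adjusted p = 0.512, standard error 0.41), and it turned to -0.23 without mouse 5. *Cfb*, the protease of the alternative C3 convertase, had 5.23, 8.54 and 6.56 CPM in Control WT, 3.66, 8.27 and 5.42 CPM in AOM-DSS WT and 8.47, 5.37 and 5.47 CPM in AOM-DSS Claudin-2TG mice. Each group spanned nearly the same range. For *Cfb* the difference of AOM-DSS WT from Control WT was -0.20 in log2 units (standard error 0.33, adjusted p = 0.707), and without mouse 4 it was 0.04.

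*Cfi* encodes factor I, which cleaves and inactivates the C3b and C4b fragments, and lies on chromosome 3 from 129835884 to 129875332. Its read counts were 1, 2 and 2 in Control WT, 6, 144 and 261 in AOM-DSS WT and 1, 6 and 6 in AOM-DSS Claudin-2TG mice. In CPM, AOM-DSS WT mice 5 and 6 had 6.37 and 17.5, mouse 4 had 0.305, and no other mouse had more than 0.443. The high values thus came from 2 of the 3 AOM-DSS WT mice, and mouse 4 had the same 6 reads as AOM-DSS Claudin-2TG mice 8 and 9. *Cfi* was not tested, since too few mice passed the count filter. Pooled over mice, 411 reads against 5 gave an AOM-DSS WT to Control WT ratio of 90.5 (exact 95% interval 38.5 to 280, counting error only and not the spread between mice). In a fit with no filter on low counts *Cfi* differed by 6.53 in log2 (adjusted p = 0.139, standard error 1.90). Fits without mouse 4 admit *Cfi* only through mice 5 and 6, where it is high, and its values in them are not used.

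*C3ar1* encodes the receptor for the C3a fragment, found on myeloid cells, and lies on chromosome 6 from 122847138 to 122856161. It was low throughout, at 1.09, 0.854 and 1.22 CPM in Control WT, 1.32, 3.67 and 2.21 CPM in AOM-DSS WT and 1.38, 0.101 and 0.369 CPM in AOM-DSS Claudin-2TG mice. Mouse 5 was the highest, and AOM-DSS WT mouse 4 was only just above the highest Control WT mouse and below AOM-DSS Claudin-2TG mouse 7. The log2 fold change of AOM-DSS WT against Control WT was 1.21 (adjusted p = 0.0843, standard error 0.41). Without AOM-DSS WT mouse 4 the call was made (log2 fold change 1.50, adjusted p = 0.0156).

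The number of calls depended on single mice, among the members as over all genes. Without Control WT mouse 1, the mouse that differed in sex, only *C4b* was called, against 2.44% of all genes called higher in that fit, although the log2 fold changes of *C1qb* and *C1qc* were 2.03 and 2.02. Leaving out Control WT mouse 2 or 3 left 0 members called by edgeR (adjusted p = 0.0684 and 0.0605 for *C4b*), where 0.470% and 1.45% of all genes were called higher. Leaving out AOM-DSS WT mouse 4 added *C3ar1* to the 5, where 14.1% of all genes were called higher. Without AOM-DSS WT mouse 5 or 6, *C1qa* was lost and the other 4 were called, against 4.24% and 3.77% of all genes. In all 6 such fits the log2 fold changes of the 5 called genes were positive, from 1.31 for *C4b* to 2.47 for *C2*.

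The second question was how the same treatment differed with the Claudin-2 transgene. The 3 C1q genes, *C4b* and *C2* fell 3.26- to 5.66-fold in AOM-DSS Claudin-2TG against AOM-DSS WT colon. Of the 8 members tested, 5 were called lower and 0 higher, against 7.35% of 14888 genes called lower. The median log2 fold change was -2.12 over the 8 members and 0.01 over all genes tested. In those same 5 genes every AOM-DSS Claudin-2TG mouse was below every AOM-DSS WT mouse (two-sided exact permutation test, p = 0.1), which held for 14.3% of all genes tested. This comparison shares the AOM-DSS WT mice with the first, so a level that was high in those mice by chance would appear in both.

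*C1qb* fell by 2.50 in log2 units (standard error 0.44, adjusted p = 0.0178), *C1qc* by 2.31 (standard error 0.43, adjusted p = 0.0190) and *C1qa* by 2.23 (standard error 0.45, adjusted p = 0.0266). *C4b* fell by 2.21 (standard error 0.33, adjusted p = 0.00909) and *C2* by 1.70 (standard error 0.44, adjusted p = 0.0452). *C3ar1* had a difference of similar size, -2.03, but with a standard error of 0.76 and an adjusted p of 0.146. It passed the count filter in this comparison only through the AOM-DSS WT mice, in which it was higher. *C3* differed by -0.95 (standard error 0.53, adjusted p = 0.357) and *Cfb* by 0.13 (standard error 0.33, adjusted p = 0.886). *Cfi* was again not tested, and 13 reads against 411 gave a pooled ratio of 0.0379 (exact 95% interval 0.0200 to 0.0655, counting error only).

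**Figure D2:**
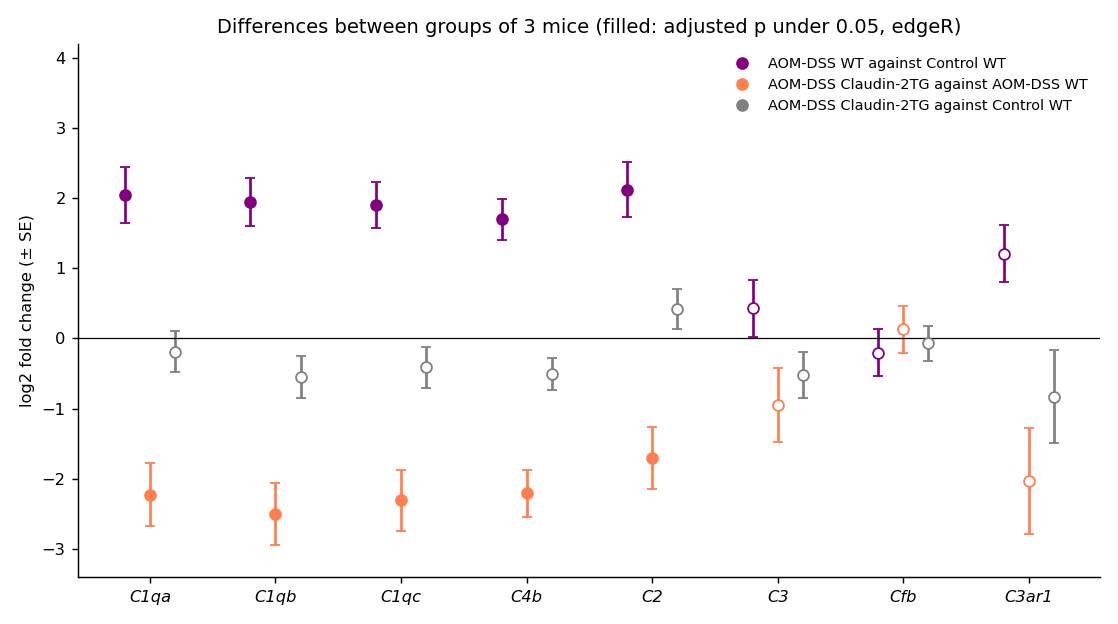
Log2 fold changes from edgeR with their standard errors for the 8 complement genes tested, in 3 comparisons of 3 mice against 3. Filled points have an adjusted p under 0.05. The C1q genes, *C4b* and *C2* lie between 1.70 and 2.12 in AOM-DSS WT against Control WT and between -2.50 and -1.70 in AOM-DSS Claudin-2TG against AOM-DSS WT, and no point is filled in AOM-DSS Claudin-2TG against Control WT.

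Without AOM-DSS Claudin-2TG mouse 8 or 9, 0 members were called by edgeR in this comparison, with adjusted p = 0.0594 and 0.0644 for *C4b*, and 0.316% and 0.546% of all genes were called lower in these fits. Without AOM-DSS WT mouse 5 only *C4b* was called, against 2.98% of all genes. Without AOM-DSS WT mouse 6, or AOM-DSS Claudin-2TG mouse 7, *C1qb*, *C1qc* and *C4b* were called, against 4.21% and 2.41% of all genes, and without AOM-DSS WT mouse 4 the 5 genes were, against 13.1%. The log2 fold changes of the 5 genes remained between -2.94 and -1.43 in all 6 fits. With no filter on low counts, which raises the number of genes tested to 26185, *C2* and *C4b* were called and the C1q genes were not, and with lane 2 alone *C2* was lost and *C3ar1* was called. Over both lanes *C3ar1* had 20, 2 and 5 reads in AOM-DSS Claudin-2TG mice. With lane 2 alone it thus passed the count filter only through the AOM-DSS WT mice, where it was higher. Lane 2 held 4023472, 5757674 and 4811928 reads for mice 6, 7 and 9.

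The third comparison set AOM-DSS Claudin-2TG against Control WT colon, which differ in both genotype and treatment. By edgeR 0 of 8 members were called, against 10.0% of 15013 genes called in either direction, a share that was 2.83% with all 9 mice in the fit and 3.44% to 8.95% when 1 mouse was left out. DESeq2 also called 0. An unadjusted edgeR p under 0.05 was found for 1 of the 8 members, *C4b*, and for 3896 of the 15013 genes tested. The median log2 fold change was -0.46 over the 8 members and 0.00 over all genes tested. *C4b* was at 4.36 ± 1.09 CPM (SD, n = 3) against 6.19 ± 0.543 CPM (SD, n = 3), a difference of -0.51 (standard error 0.23, adjusted p = 0.182 from edgeR). Its groups did not overlap, and the share of all genes without overlap was not taken for this comparison. Of the 8 tested, *C2* alone had a positive difference, at 0.42 (standard error 0.29, adjusted p = 0.392). *Cfi* was not tested, and its 13 reads against 5 gave a pooled ratio of 3.43 (exact 95% interval 1.15 to 12.3, counting error only). *C1qa* differed by -0.19 (standard error 0.29), *C1qb* by -0.55 (standard error 0.30) and *C1qc* by -0.41 (standard error 0.29), and all 3 overlapped between the groups. These missed calls do not show that the levels were equal. Without Control WT mouse 1, 0 of the 8 were called by edgeR. Without AOM-DSS Claudin-2TG mouse 7 the differences of *C1qb*, *C1qc* and *C3ar1* were -1.01, -0.86 and -2.26 and each was called lower, where 5.17% of all genes were called lower. In that fit *C3ar1* passed the count filter only through the Control WT mice, in which it was higher.

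Read counts are comparable between genes only per length, and so the order of the members was taken in CPM per kilobase of exon, with the bases that *C2* and *Cfb* share with other gene models left out. In AOM-DSS WT mice *C1qa* came first at 36.6 ± 17.2 CPM per kilobase (SD, n = 3), then *C1qb* at 30.9 ± 13.1, *C1qc* at 14.0 ± 5.81, *C3* at 12.7 ± 8.23 and *Cfb* at 9.99 ± 4.02. Below them came *C2* at 4.69 ± 2.22, *Cfi* at 3.63 ± 3.92, *C4b* at 3.46 ± 1.47 and *C3ar1* at 0.558 ± 0.276 CPM per kilobase. The ranges of neighbours in this order overlapped over the mice, except *C4b* and *C3ar1*. Within every mouse, though, *C1qa* was above *C1qb* and *C1qb* above *C1qc*. In Control WT mice the order began with *Cfb* at 11.7 ± 2.88, *C3* at 9.57 ± 1.13, *C1qa* at 9.07 ± 2.28 and *C1qb* at 8.12 ± 1.55 CPM per kilobase, where neighbours also overlapped. *C1qc* followed at 3.82 ± 0.630, *C2* and *C4b* at 1.09 each, *C3ar1* at 0.245 ± 0.0429 and *Cfi* at 0.0356 ± 0.0118. Over all its exonic bases *Cfb* was at 2.40 CPM per kilobase in Control WT mice, which would place it below *C1qc*, so its rank depends on how reads of the readthrough model were counted. With the stretches that *C4b* shares with *C4a* left out of its length, a choice made after seeing the data, *C4b* was at 5.29 ± 2.25 CPM per kilobase in AOM-DSS WT and 1.67 ± 0.146 in Control WT mice, above *C2* in both, so its rank too depends on how shared reads were assigned.

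**Figure D3:**
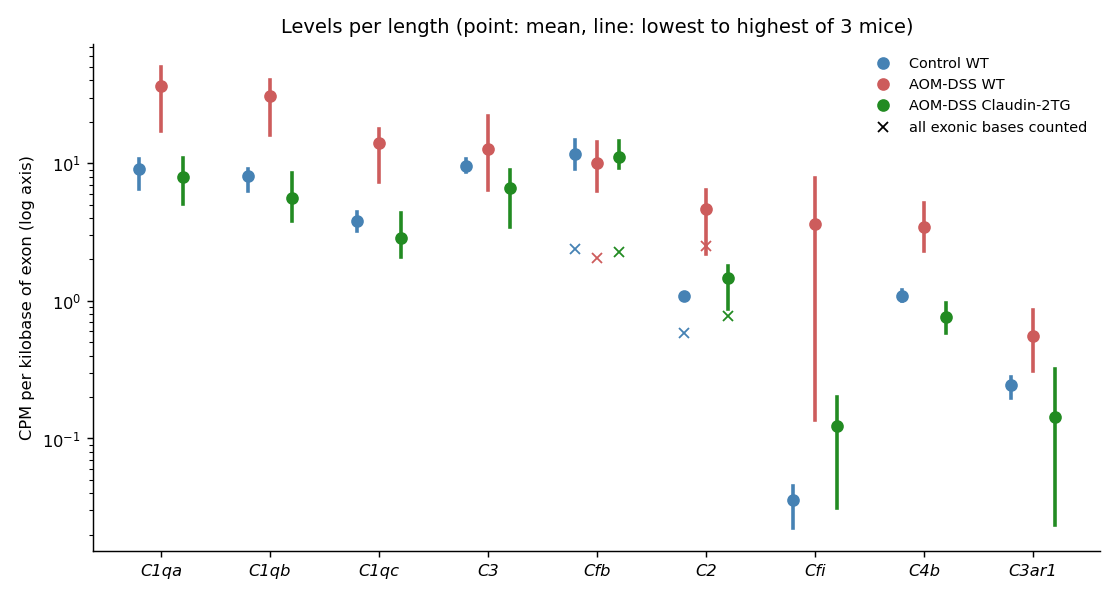
CPM per kilobase of exon for each complement gene and group on a log axis, in the order of the AOM-DSS WT means. Points are means, lines run from the lowest to the highest of 3 mice, and crosses give the means of *Cfb* and *C2* when all exonic bases are counted. C1q genes lead in AOM-DSS WT mice at 14.0 to 36.6, and *Cfi* spans the widest range, from 0.137 to 7.87 in AOM-DSS WT mice.

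The wider pathway was examined in 40 other complement genes, of which 21 had enough counts to be tested in AOM-DSS WT against Control WT. In that comparison 7 were called higher and 1 lower, where 8.04% of all genes tested were called higher and 6.92% lower, with a median log2 fold change of 0.68. In AOM-DSS Claudin-2TG against AOM-DSS WT 8 of 20 were called lower and 0 higher, where 7.35% of all genes were called lower, with a median of -1.19. In AOM-DSS Claudin-2TG against Control WT 2 of 21 were called higher and 3 lower, where 10.0% of all genes were called in either direction, with a median of -0.25. Single mice decided many of these calls. The first count, 8 in both directions, was 1 without Control WT mouse 2, 2 without Control WT mouse 3, 5 without Control WT mouse 1 or AOM-DSS WT mouse 5 and 14 without AOM-DSS WT mouse 4. The second was 0 and 1 without AOM-DSS Claudin-2TG mouse 8 and 9, 5 without mouse 7 and 3 without AOM-DSS WT mouse 5, and the third was 3 of 5 without Control WT mouse 3 or AOM-DSS Claudin-2TG mouse 8.

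Of the classical initiators, *C1s1* encodes the protease C1s and *C1ra* the protease C1r, which activates it. *C1s1* was at 8.36, 7.93 and 7.99 CPM in Control WT, 16.9, 33.7 and 23.0 CPM in AOM-DSS WT and 7.92, 5.07 and 7.39 CPM in AOM-DSS Claudin-2TG mice. Every AOM-DSS WT mouse was above the others. *C1s1* rose by 1.62 in AOM-DSS WT against Control WT (standard error 0.24, adjusted p = 0.0102) and fell by 1.88 in AOM-DSS Claudin-2TG against AOM-DSS WT (standard error 0.28, adjusted p = 0.00921). *C1ra* rose by 1.05 (standard error 0.25, adjusted p = 0.0318) in the first comparison, and its difference in the other was -0.65 (standard error 0.26, adjusted p = 0.162).

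Among the regulators in solution, *Clu* encodes clusterin, a chaperone that also blocks the terminal complex. *Clu* was at 80.0, 38.8 and 23.3 CPM in Control WT, 207, 480 and 607 CPM in AOM-DSS WT and 29.3, 35.5 and 21.3 CPM in AOM-DSS Claudin-2TG mice. AOM-DSS WT mice were far above both other groups, which overlapped. *Clu* rose by 3.21 (standard error 0.58, adjusted p = 0.0196) and fell by 3.93 (standard error 0.43, adjusted p = 0.00763) in the same order of comparisons. *Serping1*, the inhibitor of C1r and C1s, fell by 1.17 in AOM-DSS Claudin-2TG against AOM-DSS WT (adjusted p = 0.0397) and by 0.55 against Control WT (adjusted p = 0.0371). *C4bp*, which encodes a *C4b*-binding inhibitor, rose by 0.49 in AOM-DSS Claudin-2TG against Control WT (adjusted p = 0.0335).

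*Cfp* encodes properdin, which stabilizes the alternative convertase. It rose by 1.16 in AOM-DSS WT against Control WT (adjusted p = 0.0185) and fell by 1.20 in AOM-DSS Claudin-2TG against AOM-DSS WT (adjusted p = 0.0156), although *Cfb* itself passed neither test. *Cd55* encodes a membrane protein that speeds the decay of C3 convertases. Its levels were 38.7, 39.4 and 37.5 CPM in Control WT, 93.9, 101 and 86.0 CPM in AOM-DSS WT and 64.4, 54.0 and 60.0 CPM in AOM-DSS Claudin-2TG mice. None of the 3 groups overlapped, and AOM-DSS Claudin-2TG mice lay between the other groups. *Cd55* rose by 1.31 in AOM-DSS WT (standard error 0.10, adjusted p = 0.00159) and by 0.63 in AOM-DSS Claudin-2TG mice (standard error 0.10, adjusted p = 0.00569), each against Control WT, and was called in each of the 6 fits of both comparisons that left out 1 mouse. It was lower by -0.68 on the log2 scale in AOM-DSS Claudin-2TG than in AOM-DSS WT mice (adjusted p = 0.0156), a call made in 3 of the 6 fits that left out 1 mouse (largest adjusted p = 0.0927). *Cd59a*, an inhibitor of the terminal complex, fell by 2.13 in AOM-DSS Claudin-2TG against Control WT (standard error 0.34, adjusted p = 0.00525).

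*Itgax* and *Itgb2* encode the chains of complement receptor CR4. *Itgax* rose by 1.86 in AOM-DSS WT against Control WT (adjusted p = 0.0294) and fell by 2.27 in AOM-DSS Claudin-2TG against AOM-DSS WT (adjusted p = 0.0253). *Itgb2* rose from a mean of 2.77 to 10.9 CPM (adjusted p = 0.0185) and was at 1.81 CPM in AOM-DSS Claudin-2TG mice (adjusted p = 0.00777 against AOM-DSS WT). *Cd93*, named at first as a C1q receptor, fell by 1.85 in the latter comparison (adjusted p = 0.0426). With 10 reads in AOM-DSS Claudin-2TG mouse 8, *Cd93* passed the count filter there only through the AOM-DSS WT mice, where it was higher. *Colec10*, a collectin of the lectin pathway, had small counts, at 14 to 36 reads in Control WT mice and at most 5 in the others. It is the 1 gene of the list counted as lower in AOM-DSS WT mice, with a log2 difference of -2.24, and it differed by -2.88 in AOM-DSS Claudin-2TG against Control WT. It passed the count filter only through the Control WT mice, where it was high, so these values are a description.

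**Figure D4:**
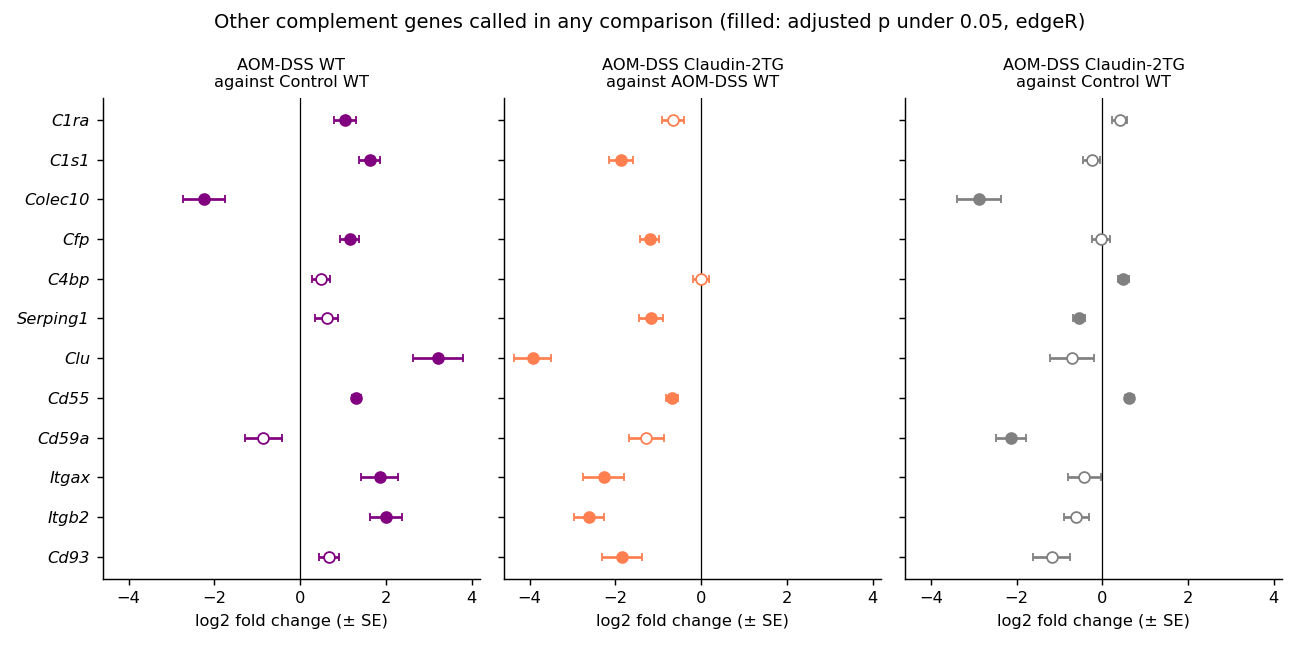
Log2 fold changes with standard errors, from edgeR, of the 12 other complement genes called in at least 1 of 3 comparisons, 1 panel per comparison. Filled points have an adjusted p under 0.05, and *Colec10* had too few counts to be tested in the middle panel. *Clu* moves farthest, at 3.21 and -3.93 in the first 2 panels, and *Cd55* is the one gene filled in all 3.

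Markers of several cell types moved with these genes, and their part in the results was not tested. Of 10 macrophage and monocyte markers, 9 were tested in AOM-DSS WT against Control WT and 4 were called higher (*Csf1r*, *Cd68*, *Mrc1* and *Lyz2*). In AOM-DSS Claudin-2TG against AOM-DSS WT 5 of 8 were called lower, these 4 and *Cx3cr1*. With 5 reads in AOM-DSS Claudin-2TG mouse 8, *Cx3cr1* passed the count filter there only through the AOM-DSS WT mice, where it was high. The summed level of the 10 markers was 182 to 203 CPM in Control WT, 200 to 361 CPM in AOM-DSS WT and 120 to 169 CPM in AOM-DSS Claudin-2TG mice, and none of the markers was at 0 in every mouse of a group. Most of the sum came from *Cd14*, *Lyz2* and *Mertk*, and edgeR called neither *Cd14* nor *Mertk* in either comparison. *Mertk* and *Cd163* did not follow the C1q genes. *Mertk* was at 28.6, 34.7 and 30.6 CPM in Control WT, 28.8, 26.0 and 13.8 CPM in AOM-DSS WT and 40.6, 24.3 and 24.5 CPM in AOM-DSS Claudin-2TG mice, and *Cd163*, at most 0.825 CPM in any mouse, was not tested. *Csf1r*, the receptor that macrophages need to survive, was at 6.52, 4.97 and 6.38 CPM in Control WT, 8.13, 25.9 and 18.7 CPM in AOM-DSS WT and 4.75, 2.58 and 2.73 CPM in AOM-DSS Claudin-2TG mice. Mice 5 and 6 were high and mouse 4 the lowest of its group, as for the C1q genes. Set against *Csf1r* within each mouse, *C1qa* was 1.35 to 1.71 times as high in Control WT, 1.71 to 2.78 times in AOM-DSS WT and 2.02 to 3.03 times in AOM-DSS Claudin-2TG mice, a comparison of CPM that is not per length.

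**Figure D5:**
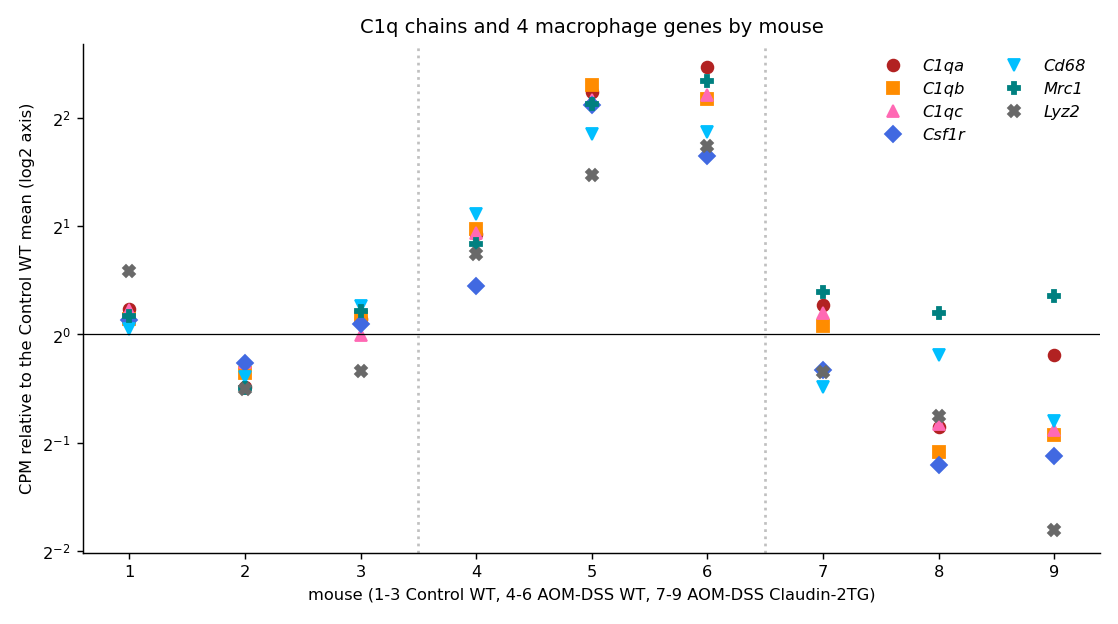
CPM of the 3 C1q genes and of the 4 macrophage markers called in both comparisons that involve AOM-DSS WT mice, in each mouse, relative to the Control WT mean of the gene on a log2 axis. Each symbol is 1 gene in 1 mouse. All 7 genes are highest in AOM-DSS WT mice 5 and 6, with mouse 4 lower, and the markers were chosen for display after their values were seen.

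Of 6 neutrophil markers, 3 were called higher in AOM-DSS WT against Control WT, all admitted by the count filter only through the AOM-DSS WT mice, and the summed level of the 6 was 0.0502 to 0.825 CPM in Control WT, 2.03 to 51.7 CPM in AOM-DSS WT and 0.222 to 0.507 CPM in AOM-DSS Claudin-2TG mice. One of them, *S100a8*, was at 0.559, 18.5 and 13.4 CPM in AOM-DSS WT mice 4, 5 and 6, so the mice with high *Cfi* were also those with high *S100a8*. Both neutrophil markers tested in AOM-DSS Claudin-2TG against AOM-DSS WT, *S100a9* and *Csf3r*, were called lower (adjusted p = 0.0386 and 0.0340), again admitted only through AOM-DSS WT mice, and *S100a8* was not tested there and did not overlap between these groups. Of 6 fibroblast markers, 0 were called in the first comparison by edgeR, with 4 at an unadjusted p under 0.05 and 3 called by DESeq2. Over all genes there, 5032 of 15437 had such a p and DESeq2 called 11.3% higher. In AOM-DSS Claudin-2TG against AOM-DSS WT 2, *Col1a2* and *Col3a1*, were called lower by edgeR. All 6 had an unadjusted p under 0.05 there, all 6 were called by DESeq2 and 5 did not overlap between the groups. Of all 14888 genes, 3498 had such a p, 9.97% were called lower by DESeq2 and 14.3% were lower without overlap. The summed level of the fibroblast markers was 292 to 422 CPM in Control WT, 446 to 1119 CPM in AOM-DSS WT and 181 to 260 CPM in AOM-DSS Claudin-2TG mice. Of 4 T cell markers 3 were called higher and then 3 lower in the same order of comparisons, with sums of 1.84 to 5.21, 9.65 to 18.1 and 2.99 to 6.28 CPM. Over all genes tested, 8.04% were called higher in the first and 7.35% lower in the second. *Cd3d*, 1 of these calls in both comparisons, passed the count filter only through the AOM-DSS WT mice, where it was high. All 4 endothelial markers were lower in AOM-DSS Claudin-2TG than in AOM-DSS WT mice, 3 of them called, with sums of 26.4 to 32.8 CPM in Control WT, 24.6 to 38.8 CPM in AOM-DSS WT and 11.7 to 14.5 CPM in AOM-DSS Claudin-2TG mice. Epithelial markers passed no test between AOM-DSS WT and either other group in edgeR or DESeq2. At an unadjusted p under 0.05 there was 1 of 6 in each comparison, beside the 5032 of 15437 and 3498 of 14888 genes.

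The remaining marker lists gave at most 1 call each by edgeR in either of the comparisons with AOM-DSS WT mice. Of 5 genes listed as colonocyte markers, *Aqp8*, a water channel, was called lower in AOM-DSS WT against Control WT (adjusted p = 0.0415) and higher in AOM-DSS Claudin-2TG against AOM-DSS WT (adjusted p = 0.0190). The sums of the list were 5408 to 7057, 3977 to 6746 and 5289 to 8543 CPM in Control WT, AOM-DSS WT and AOM-DSS Claudin-2TG mice. The largest part of these sums was *Muc2*, a goblet cell mucin gene, with means of 2675, 2301 and 1921 CPM in that order. Of the mesothelial markers, *Msln*, which encodes mesothelin, passed the count filter in the second comparison only through the AOM-DSS WT mice, where it was high. It was called higher and then lower in these comparisons (adjusted p = 0.0189 and 0.0312). The other markers of that list did not share this pattern, since *Upk3b*, a uroplakin, differed by -2.09 and then by 0.86 in log2 units (adjusted p = 0.117 and 0.745 from edgeR, 0.0256 and 0.748 from DESeq2) and *Wt1*, at most 0.811 CPM, was not tested. The mesothelial sums were 5.47 to 10.9, 11.7 to 30.3 and 0.276 to 7.35 CPM in the same order of groups. Of 4 B cell markers, with sums of 3.46 to 26.5, 22.9 to 42.9 and 2.66 to 16.6 CPM, *Cd79a* alone was called, lower in AOM-DSS Claudin-2TG against AOM-DSS WT (adjusted p = 0.0407), where DESeq2 called all 4 lower, as it did 9.97% of all genes. *Cxcl13*, a follicular dendritic cell marker that draws B cells, was called lower there too (adjusted p = 0.0118), and the 2 measured markers of that list summed to 1.41 to 11.4, 9.29 to 14.5 and 2.07 to 4.86 CPM. No smooth muscle or adipocyte marker was called in either comparison by edgeR, with 1 of each list at an unadjusted p under 0.05 and called by DESeq2 in the first and 0 in the second. Over all genes in the first, 5032 of 15437 had such a p and DESeq2 called 9.51% lower. Smooth muscle sums were 1484 to 3107, 760 to 2116 and 704 to 1077 CPM, and adipocyte sums 16.6 to 73.7, 10.4 to 20.4 and 6.68 to 55.7 CPM.

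The hepatocyte list summed to 109 to 143 CPM in Control WT, 139 to 246 CPM in AOM-DSS WT and 228 to 245 CPM in AOM-DSS Claudin-2TG mice, mostly from *Ttr* and *Apob*, which encode plasma transport proteins. *Ttr* was at 55.6 to 115 CPM and passed no test. *Apob* was at 33.5 to 164 CPM and was called higher than in Control WT in AOM-DSS WT (adjusted p = 0.0369) and in AOM-DSS Claudin-2TG mice (adjusted p = 0.000153). *Apoa1* had at most 0.265 CPM and *Alb* 1.85 to 14.6 CPM in any mouse. In AOM-DSS Claudin-2TG against Control WT, where no member was called, all 4 endothelial markers were called lower, as were *Acta2* and *Myh11* of smooth muscle, whose 5 markers were all lower without overlap, *Cx3cr1* and *Cd14* of the macrophage list, *Col1a2* of the fibroblast list and *Alb*, and the epithelial keratin *Krt8* was called higher (adjusted p = 0.0384). Here *Cx3cr1* passed the count filter only through the Control WT mice, where it was higher.

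Without Control WT mouse 1, fewer of these calls were made, as over all genes, where they fell from 2310 to 631 in AOM-DSS WT against Control WT and from 1501 to 958 in AOM-DSS Claudin-2TG against Control WT. Of the 8 wider complement genes called in AOM-DSS WT against Control WT, *C1s1*, *Cd55*, *Cfp* and *Clu* were called in that fit and *C1ra*, *Itgax*, *Itgb2* and *Colec10* were not, although their log2 fold changes of 1.09, 2.16, 2.05 and -2.25 were no smaller in size than with that mouse (adjusted p = 0.0596 to 0.0851). *Cr2*, a C3 fragment receptor also listed as a follicular dendritic cell marker, was called higher. It passed the count filter in that fit only through the AOM-DSS WT mice, where it was high. Of 13 marker calls in that comparison only *Lyz2* and *Msln* were made without it, while the log2 fold changes of the lost macrophage markers *Csf1r*, *Cd68* and *Mrc1* were 1.65, 1.69 and 2.01 against 1.58, 1.67 and 1.92 with it, and the 4 B cell markers, *Cr2* and *Cxcl13* were called higher. In AOM-DSS Claudin-2TG against Control WT, 4 of the 5 wider complement calls were made without it and that of *Serping1* was not (adjusted p = 0.104). Of the 12 marker calls there 7 were made without it, and those of *Col1a2*, *Cx3cr1*, *Kdr*, *Krt8* and *Myh11* were not, while the smooth muscle marker *Des* was called lower and the colonocyte marker *Slc26a3* higher.

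For each member the genes most like it were found by the mean absolute difference between log2 CPM profiles over the 9 mice, each centred on its own mean, among genes outside the 9 members with a mean of at least 5 CPM. This is a description over 9 mice that share the 3 groups, with no test. The nearest to *C1qc* were *Pla2g7* at 0.12, *Tyrobp* at 0.15 and *Apoe* at 0.16, and to *C1qb* *Pla2g7* at 0.15, *Tyrobp* at 0.16 and *Csf1r* at 0.18. Nearest to *C1qa* were *Casp12* and *Pla2g7* at 0.21 and *Gsap* at 0.22. Within the members, *C1qb* and *C1qc* were the closest pair, at 0.10, and *C1qa* was nearer to *C1qc*, at 0.17, than to any gene outside the members.

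*C4b* was nearest to *C1s1* at 0.13 and then to *Tnfaip2* at 0.17 and *Fxyd5* at 0.18. *C2* had *Gm379* at 0.20 and *Arid5a* and *Hmox1* at 0.24, *C3* had *Aebp1* at 0.23, *Mmrn1* at 0.26 and *Ccdc80* at 0.27, and *C3ar1* had *Tgfbi* and *Igfbp3* at 0.31 and *Lamb1* at 0.32. *Cfb* was nearest to *Asap2* at 0.12 and to *Ptprj* and *Wasf2* at 0.13. The nearest to *Cfi* outside the members were *Lrg1* at 0.44, *Saa3* at 0.54 and *Cxcl5* at 0.59. Among the members themselves, the nearest to *Cfi* was *C2* at 1.11.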

How the data were processed

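RNA-Seq was made from the colon of 3 Control WT, 3 AOM-DSS WT and 3 AOM-DSS Claudin-2TG mice. The authors deposited whole-number read counts per gene, without normalization, in 1 column for each of 2 lanes of each library, and 0 columns were left unused. The study's methods name TopHat2 as aligner, whereas the submitters' processing notes name HISAT2, GRCm38 and featureCounts of Subread, and versions, strand setting and the handling of multi-mapping or shared reads are not given in the sources used here. Lanes differed by little more than counting noise (chi-square per degree of freedom 0.995 to 1.057, whereas mice of 1 group gave 16.8 to 66.3) and were summed. Symbols and coordinates came from GENCODE M21 (GRCm38), which lists 47310 of 47729 identifiers.

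Groups were taken from the genotype and treatment labels and compared 2 at a time with edgeR 4.0.16 in R 4.3.3: TMM, filterByExpr with a minimum count of 10 and a minimum total of 15, robust quasi-likelihood fits, and p-values adjusted over the genes tested by the Benjamini-Hochberg method. Alternatives were DESeq2 1.42.0, library size only, upper-quartile normalization, no filter, a minimum of 10 counts in each mouse, 1 fit of all 9 mice, each lane alone and leaving out each mouse. Per-length levels are CPM over exonic bases not shared with another gene model. Python 3.11.15 with pandas 2.3.3, scipy 1.17.1 and matplotlib 3.10.9 made tables and plots. The text names all 9 members, every gene of the wider complement list called in any comparison, marker genes chosen after their values were seen, and for each member the 3 nearest genes. The members and lists were chosen with earlier results of these data known. 1 gene of the wider list is not reported here and was left out of its counts. No sequence of the proteins was used here.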

Additional observations from a re-analysis of the deposited data

How the results depend on the processing

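With DESeq2, library size only, upper-quartile normalization, a minimum of 10 counts in each mouse, 1 fit of all 9 mice or lane 1 alone, edgeR's 5, 5 and 0 member calls in AOM-DSS WT against Control WT, AOM-DSS Claudin-2TG against AOM-DSS WT and AOM-DSS Claudin-2TG against Control WT were the same genes. With no filter on low counts, where more genes are tested, *C1qa* was lost in the first comparison and 2 members were called in the second. Leaving out 1 mouse gave 0 to 7, 0 to 6 and 0 to 3 member calls (the 7 and the 6 include *Cfi*, admitted only through AOM-DSS WT mice 5 and 6), and 1 to 14, 0 to 11 and 3 to 4 calls of the wider list, so both counts depend on single mice, in fits that assume the spread of the remaining mice and have fewer degrees of freedom. In the third comparison the wider list had 3 calls with all 9 mice in the fit, 2 with lane 1 alone and 3 with lane 2 alone, against 5. Signs turned only for members that were not called. *Cfb* turned to -0.01 with lane 2 alone in AOM-DSS Claudin-2TG against AOM-DSS WT, and leaving out 1 mouse spread it over -0.55 to 0.04, -0.11 to 0.48 and -0.33 to 0.13 in the 3 comparisons, *C3* over -0.23 to 0.74 in the first and *C1qa* over -0.50 to 0.06 in the third. The cause was not tested. Library size in place of TMM moved the median of all genes in the third comparison from 0.00 to -0.11 and its calls from 589 higher and 912 lower to 276 and 1310. Calls over all genes ran from 135 to 4080 in the first comparison, from 58 to 2894 in the second and from 525 to 1383 in the third when 1 mouse was left out. No paired analysis was possible because the groups share no replicate numbers. Counts under 3 reads limit *Cfi* in Control WT mice.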

Other observations

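Of the 40 other complement genes, 19 had too few counts to be tested in AOM-DSS WT against Control WT. They included most genes of the lectin pathway and of the terminal complex. Of 7 terminal genes only *C7* and *C8g* were tested there, and *C9* reached at most 0.305 CPM and *Hc*, which encodes C5, 0.565 CPM in any mouse. *Mbl1* and *Fcnb*, which encode a mannose-binding lectin and a ficolin, were listed at 0 reads in every mouse, which allows up to 0.222 CPM in the mouse with the highest limit. *Cr1l*, a membrane regulator, hardly varied, at 71.8 to 84.2 CPM over the 9 mice, with log2 differences of 0.10 (standard error 0.10) in AOM-DSS WT against Control WT and -0.02 (standard error 0.11) in AOM-DSS Claudin-2TG against AOM-DSS WT.

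*Cfd* encodes adipsin, the factor D protease that fat cells secrete and that activates factor B. It was at 11.5, 73.4 and 12.4 CPM in Control WT, 1.78, 18.4 and 0.0670 CPM in AOM-DSS WT and 3.86, 48.9 and 1.40 CPM in AOM-DSS Claudin-2TG mice. Control WT mouse 2, AOM-DSS WT mouse 5 and AOM-DSS Claudin-2TG mouse 8 were far above the others of their groups. The fat cell marker *Adipoq* was at 10.6, 2.08 and 8.36 CPM in those 3 mice. Within a mouse *Cfd* was at most 9.50 times as high as *Adipoq* in CPM, while its own level ranged from 0.0670 to 73.4 CPM. *Cfd* passed no test, with an adjusted p of 0.302 in AOM-DSS WT against Control WT and 0.720 in AOM-DSS Claudin-2TG against AOM-DSS WT from edgeR.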
